A study of Mus musculus with 6 samples.

Results

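The 40 genes described here encode the bone morphogenetic proteins (BMPs), activins and transforming growth factor beta (TGF-beta) ligands, the secreted proteins that bind them, their receptors, the Smad proteins and the Id target genes. Members were found by gene symbol in the probe annotation of the array platform, whether or not they were detected. Of the 40 genes, 38 had at least 1 probe, and together they had 71 of the 45281 probes on the array. Inhbb, the activin beta B subunit, and Smad4, the Smad shared by all branches, had no probe so named and were not analysed here. A probe counted as detected on an array where its deposited detection p-value was under 0.05, and it was kept for testing where it was detected on at least 3 of the 6 arrays. This left 48 of the 71 probes, and each gene was then represented by its kept probe with the highest mean, giving 30 of the 40 genes among 13638 features tested. A gene could pass this filter through the arrays of 1 group alone, so counts over the 30 do not describe all 40.

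RNA levels were read in motor neurons sorted by fluorescence from the cervical spinal cord of HB9::GFP mouse embryos at stage e12.5, on a background labelled as a mix of c57/bl6, balbc and fvb. The 3 wild-type samples were compared with 3 samples labelled Hox5 mut, for which the series title gives Hoxa5fl/fl with olig2CRE and Hoxc5-/-, and each sample was hybridised to 1 Illumina bead array. The HB9::GFP reporter, which marks motor neurons, is given for both groups. The sources used here do not say whether the wild-type embryos carried olig2CRE or a floxed allele. The Olig2 promoter drives Cre in motor neuron progenitors and their descendants, so Hoxa5 was targeted only in that lineage, whereas the Hoxc5 null allele is present in every cell of the embryo. The labels do not state whether a sample is a single embryo or several, so the p-values below measure the spread between these 6 samples, which may be technical.

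BMP, activin and TGF-beta ligands are secreted dimers that assemble type I and type II receptor kinases at the cell surface. BMP-type receptors phosphorylate Smad1 and Smad5, activin and TGF-beta receptors phosphorylate Smad2 and Smad3, and Smad6 and Smad7 restrain both branches. In the developing spinal cord, BMPs from the roof plate and overlying ectoderm pattern dorsal cell types, while noggin, chordin and follistatin bind the ligands outside the cell, and Id genes are direct targets of BMP signalling.

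The targeted genes and the cell type markers were read on the same arrays. Log2 intensities of Hoxa5 ran from 13.94 to 14.03 on the wild-type arrays and from 13.15 to 13.81 on the arrays labelled mutant, and those of Hoxc5 from 6.47 to 6.68 and from 6.58 to 7.71. The sources used here do not place these probes inside or outside the deleted sequence, so they check nothing about the genotype, and every direction below rests on the label. Between 19307 and 20307 probes were detected per array. Of 10 motor neuron markers, 8 were detected on all 6 arrays, among them Mnx1, Isl1 and Chat, and none was undetected throughout. So were 8 of the 9 interneuron markers with a probe and 8 of the 10 progenitor markers. These counts therefore do not set motor neurons apart from other cells.

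Mutant replicate 1 stood apart from the other arrays in markers of other cells. The summed intensity of the 8 blood markers with a probe was 73140 there, 10655 on wild-type replicate 1 and between 1358 and 3135 on the remaining arrays. For the 11 mesenchyme markers the sum was 18730 against 1291 to 3680 on the other arrays, for the 11 endothelium markers 2637 against 421.4 to 594.0, and for the 10 progenitor markers 12497 against 3140 to 6602. Motor neuron markers summed to 1605 on mutant replicate 1, to 2631 and 5544 on mutant replicates 3 and 2, and to between 4110 and 4574 on the wild-type arrays. Bright genes weigh most in such a sum. Lhx4 was furthest apart on mutant replicate 1, at a log2 intensity of 6.62 against 9.80 to 11.07 elsewhere. Of the 10 motor neuron markers, 6 were lowest on that array, whereas Isl1 and Chat were lowest on mutant replicate 3. The 9 interneuron markers summed to 10242 on mutant replicate 1 against 19121 to 23967 elsewhere. Markers of roof plate and dorsal cells summed to 2331 against 561.0 to 1186, but Lmx1a, Wnt1, Atoh1, Pax3 and Pax7 were detected on no array. Of those tested, only Zic1 was highest on mutant replicate 1, at a log2 intensity of 10.96 against 8.15 to 9.66. Msx1 and Olig3 were highest on other arrays. The macrophage sum was 485.7 against 188.5 to 228.7 elsewhere, with Ptprc detected on no array, and the muscle sum 291.3 against 224.5 to 258.0, with Myod1, Myf5, Actc1 and Chrna1 detected on no array. Sensory neuron and neural crest markers summed to 964.0 on mutant replicate 1, inside the range of 819.0 to 978.2 on the other arrays. That sum joins opposite moves on the log2 scale. Sox10 was highest on mutant replicate 1, at 9.06 against 6.09 to 6.90 elsewhere, and Pou4f1 was lowest, at 8.48 against 9.36 to 9.70. Postn and Tie1 were the mesenchyme and endothelium markers detected on no array, Olig2 and Pax6 the progenitor markers, and Runx3 and Erbb3 the neural crest ones. In such sorted bulk samples, more cells of a type and more RNA per cell cannot be told apart.

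**Figure D1:**
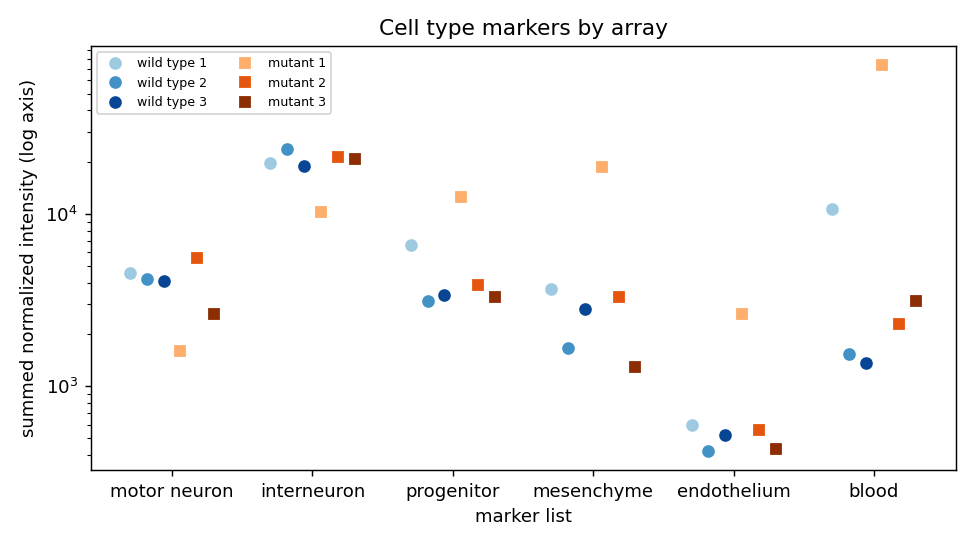
Summed normalized intensity of 6 cell type marker lists (log axis) on each of the 6 arrays, 1 point per array, circles for wild type and squares for the arrays labelled mutant. Mutant replicate 1 was the highest array for progenitor, mesenchyme, endothelium and blood markers and the lowest for motor neuron and interneuron markers.

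The comparison asked which of these signalling genes differ in sorted cervical motor neurons between the wild-type samples and those labelled Hox5 mut. None of the 30 genes passed the test. Tgfb2, a TGF-beta ligand, and Chrd, which encodes the BMP antagonist chordin, measured higher on all 3 arrays labelled mutant than on any wild-type array. Fst, which encodes the activin-binding protein follistatin, was detected on the wild-type arrays alone. Of the 30 genes tested with limma, 0 reached an adjusted p under 0.05, as did 0% of all 13638 features, and the adjusted p of every member was 0.998. At an unadjusted p under 0.05 limma found 1 member, Fst, beside 1.77% of all features. The values of the groups did not overlap for 3 members, Fst, Tgfb2 and Chrd, beside 5.51% of all features. Fst entered the test only through the group where it was high, so neither its p nor its separation supports a difference.

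The direction of the differences was mixed. Of the 30 members, 16 were higher on the arrays labelled mutant and 14 lower, beside 47.4% of all features higher, and the median difference was 0.05 on the log2 scale against −0.01 over all features. For 14 members the highest array was mutant replicate 1, beside 25.6% of all features, and for 9 it was the lowest, beside 35.7%. Without that array limma called 0 of 28 members, as it did 0% of 13202 features, and the 1 member with an unadjusted p under 0.05, beside 2.21% of features, was again Fst. In that fit 11 of 28 members were higher, beside 51.1% of features, and the median was −0.02 against 0.00 over all features.

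**Figure D2:**
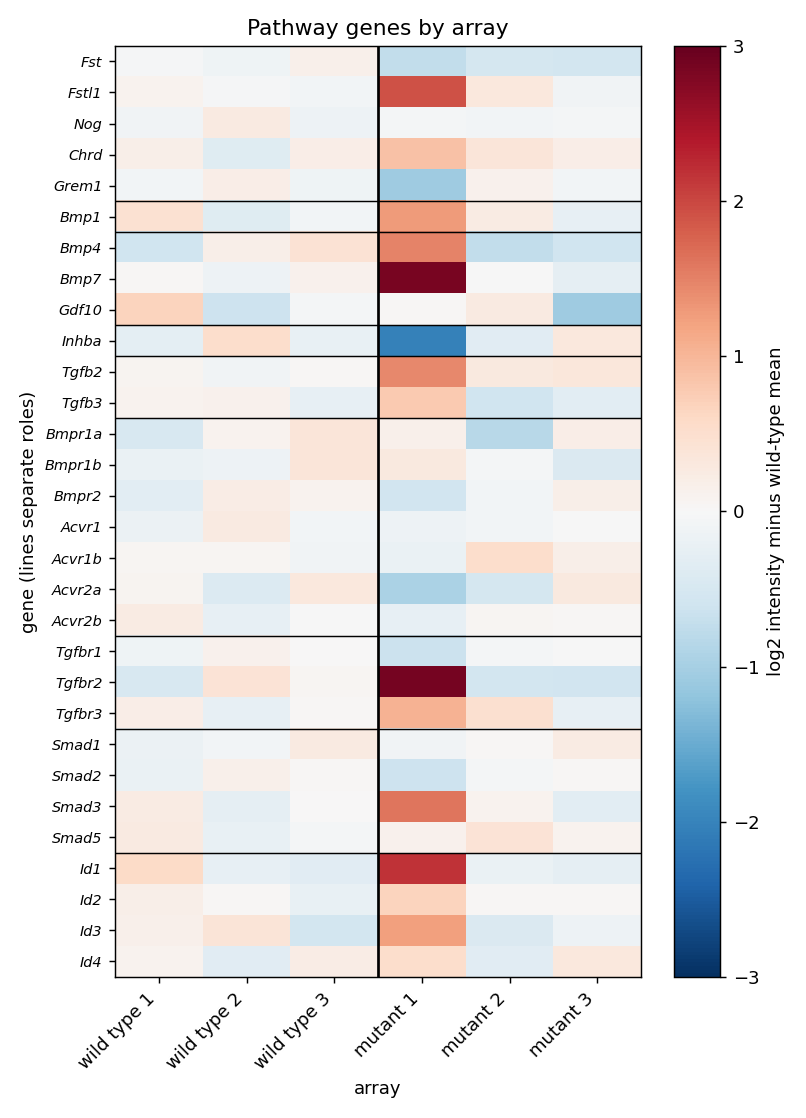
Log2 intensity of each of the 30 tested genes minus its wild-type mean, by array, with lines between roles from secreted antagonists at the top to Id genes at the bottom; red is above and blue below the wild-type mean. The column of mutant replicate 1 holds the strongest colours, red for Tgfbr2, Bmp7 and Id1 and blue for Inhba.

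Among the secreted proteins that bind ligands, follistatin was near the limit of detection. Fst measured 5.24, 5.15 and 5.44 on wild-type replicates 1, 2 and 3 and 4.55, 4.74 and 4.73 on the arrays labelled mutant. The groups did not overlap on this scale. Its probe was dim: deposited intensities were 118.0, 106.7 and 118.0 against 99.0, 106.9 and 110.4, with detection p-values of 0.009, 0.017 and 0.004 against 0.249, 0.095 and 0.121. It was thus detected on all 3 wild-type arrays and on none labelled mutant, a pattern shown by 0.205% of all features. Before normalization the intensities of the groups overlapped. Since the probe was not well above background on any array labelled mutant, only a bound can be given, with a limma adjusted p of 0.998. With the background correction used here the mean Fst signal was at least 1.30-fold lower there. This bound fell to 1.14-fold at an offset of 50 and to 1.09-fold with no background correction or with the authors' normalized values. It makes no allowance for the spread between samples. Fst passed the filter only through the wild-type arrays, so the bound is no support for a difference. For this bound each mutant array entered with the value of its dimmest detected probe, or with Fst itself where that was brighter.

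Chrd encodes chordin, an extracellular antagonist that binds BMPs. Its values were 8.75, 8.22 and 8.77 on the wild-type arrays and 9.47, 8.95 and 8.77 on the arrays labelled mutant. The ranges touched without overlapping, since mutant replicate 3, at 8.773, stood just above wild-type replicate 3, at 8.766. The difference was 0.49 (−0.093 to 1.07) and 0.29 (−0.224 to 0.796) without mutant replicate 1. Fstl1, a secreted follistatin-like glycoprotein, measured 7.16, 7.03 and 6.97 against 8.95, 7.36 and 6.94. A single array, mutant replicate 1, made up most of its difference of 0.70 (−0.422 to 1.82), which was 0.10 without it.

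Grem1 encodes gremlin, a BMP antagonist of the DAN family. It measured 5.69, 5.98 and 5.65 on the wild-type arrays and 4.71, 5.90 and 5.68 on the arrays labelled mutant. Only mutant replicate 1 lay outside the wild-type range, and the difference of −0.34 (−1.08 to 0.392) became 0.01 without it. Nog, which encodes the BMP antagonist noggin, ran from 5.09 to 5.52 and from 5.17 to 5.20, a difference of −0.06 (−0.459 to 0.337). Fstl3, a follistatin-related activin-binding protein, was detected on no array. Bmp1 encodes a metalloprotease that cleaves procollagen and chordin and is not a BMP-type ligand. It measured 11.39, 10.56 and 10.84 against 12.20, 11.17 and 10.68, a difference of 0.42 (−0.526 to 1.37) that was −0.0038 without mutant replicate 1.

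Ligands of the BMP and growth differentiation factor group differed mainly on mutant replicate 1. Bmp7, a BMP expressed in many embryonic tissues, measured 5.44, 5.25 and 5.55 on the wild-type arrays and 8.26, 5.40 and 5.14 on those labelled mutant. Its difference of 0.85 (−0.928 to 2.64), the largest of the 30 in size, came from that array alone and was −0.14 (−0.558 to 0.274) without it. Bmp4, a dorsalizing BMP, measured 5.07, 5.85 and 6.12 against 7.16, 4.94 and 5.09. Mutant replicates 2 and 3 were beside wild-type replicate 1 at the low end and mutant replicate 1 was the highest array. The difference was 0.05 (−1.36 to 1.45) over all arrays and −0.67 (−1.39 to 0.053) without mutant replicate 1. Gdf10, a BMP3-related ligand, ran from 5.27 to 6.55 on the wild-type arrays and from 4.82 to 6.15 on those labelled mutant, a difference of −0.26 (−1.28 to 0.765). The remaining ligand genes of this group were not kept: Bmp2 and Gdf11 were detected on no array, and Bmp5 and Bmp6 only on mutant replicate 1, with detection p-values there of 0.012 and 0.017.

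Inhba encodes the activin beta A subunit. It measured 6.56, 7.38 and 6.62 on the wild-type arrays and 4.84, 6.52 and 7.16 on those labelled mutant. Mutant replicate 1, the lowest array, was the only one on which Inhba was not detected, whereas mutant replicate 3 lay inside the wild-type range and replicate 2 just below it. The difference of −0.68 (−2.02 to 0.651) was −0.01 (−0.742 to 0.712) without that array. The sum of motor neuron markers was also lowest there, with 6 of the 10 markers lowest on that array. Their part in the Inhba value was not tested.

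Of the TGF-beta ligands, Tgfb2 separated the groups. It measured 7.06, 6.88 and 7.004 on wild-type replicates 1, 2 and 3 and 8.43, 7.26 and 7.31 on the arrays labelled mutant. All 3 mutant values were above the highest wild-type one, with mutant replicate 1 more than 1 log2 unit above the others. The difference was 0.69 (−0.055 to 1.43), with a limma adjusted p of 0.998, and 0.31 (−0.055 to 0.674) without mutant replicate 1. It was positive in every alternative listed in the closing section. Tgfb3 was detected on 2 wild-type arrays and on mutant replicate 1 only, with values of 5.21, 5.23 and 4.87 against 5.88, 4.52 and 4.79, and its difference of −0.04 was 0.0062 at an offset of 50. Tgfb1 was detected on no array.

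**Figure D3:**
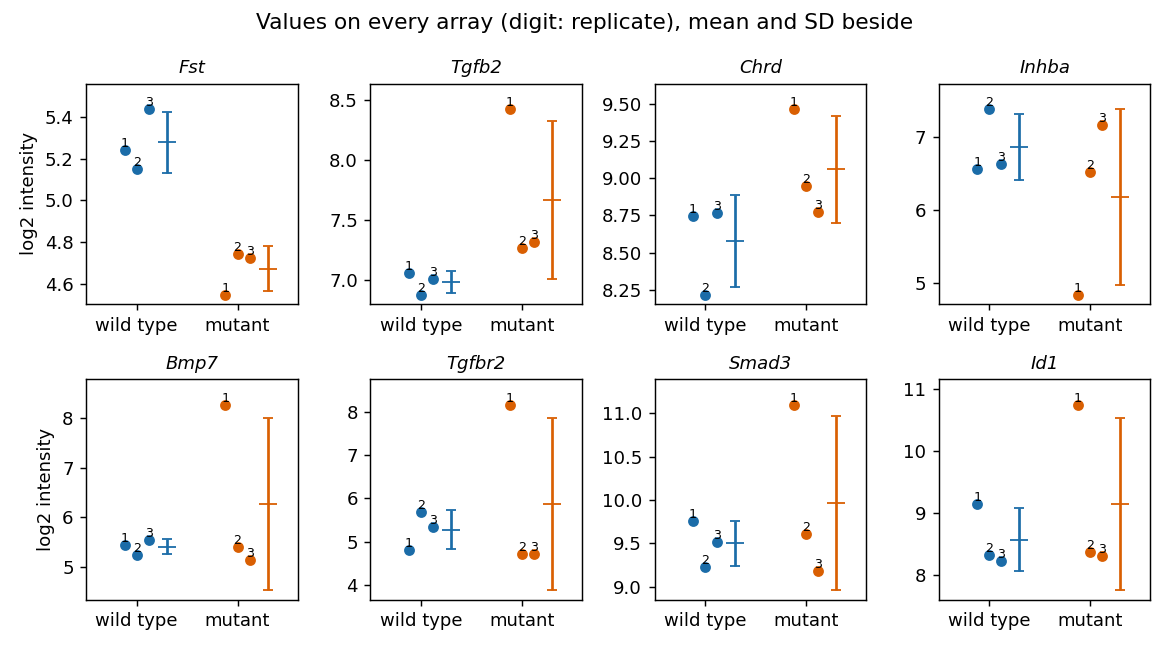
Log2 intensity of 8 genes on every array, with the digit giving the replicate and the bar beside each group its mean and SD (n = 3). The groups do not overlap for Fst, Tgfb2 and Chrd, and for Inhba, Bmp7, Tgfbr2, Smad3 and Id1 mutant replicate 1 lies far from the other 5 arrays.

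The promoter of Tgfb2 is shown because this ligand separated the groups, with those of Id2, Id3 and Id4, the Id genes for which a promoter sequence was at hand, for the BMP target genes described below. Sequences are from RefSeq on GRCm38.p6, from 250 bases before to 50 after the transcription start, written 5′ to 3′ on the gene's strand. Tgfb2 lies at chr1:186705940-186706239 on the minus strand, Id2 at chr12:25096043-25096342 on the minus strand, Id3 at chr4:136143572-136143871 on the plus strand and Id4 at chr13:48260866-48261165 on the plus strand. Capitals mark matches to GGCGCC, which reads the same on both strands, and to CAGAC on either strand, short motifs that Smad proteins can bind. No matches shown share a base.
Tgfb2: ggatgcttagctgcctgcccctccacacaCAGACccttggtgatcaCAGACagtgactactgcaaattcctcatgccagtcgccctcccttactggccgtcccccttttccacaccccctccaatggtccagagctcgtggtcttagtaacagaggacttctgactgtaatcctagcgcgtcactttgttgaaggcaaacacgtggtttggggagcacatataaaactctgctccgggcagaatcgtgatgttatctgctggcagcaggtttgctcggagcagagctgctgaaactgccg
Id2: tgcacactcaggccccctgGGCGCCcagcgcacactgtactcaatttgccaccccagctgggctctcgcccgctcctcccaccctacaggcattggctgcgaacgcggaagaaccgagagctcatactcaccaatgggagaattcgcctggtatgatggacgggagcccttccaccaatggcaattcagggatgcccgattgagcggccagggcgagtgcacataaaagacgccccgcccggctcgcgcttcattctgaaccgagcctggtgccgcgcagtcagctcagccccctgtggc
Id3: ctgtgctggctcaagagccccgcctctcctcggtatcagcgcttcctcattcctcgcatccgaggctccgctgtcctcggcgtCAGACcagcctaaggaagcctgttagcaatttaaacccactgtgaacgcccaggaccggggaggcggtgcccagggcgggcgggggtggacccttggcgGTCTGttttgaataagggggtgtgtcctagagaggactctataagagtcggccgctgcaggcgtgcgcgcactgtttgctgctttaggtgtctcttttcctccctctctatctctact
Id4: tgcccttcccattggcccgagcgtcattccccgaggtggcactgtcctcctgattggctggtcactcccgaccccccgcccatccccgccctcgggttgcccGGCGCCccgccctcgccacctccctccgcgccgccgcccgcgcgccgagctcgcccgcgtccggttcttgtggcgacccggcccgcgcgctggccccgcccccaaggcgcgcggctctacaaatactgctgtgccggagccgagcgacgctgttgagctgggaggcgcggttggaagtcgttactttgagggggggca
Tgfb2 and Id3 held 2 matches each to CAGAC and 0 to GGCGCC, whereas Id2 and Id4 held 1 each to GGCGCC and 0 to CAGAC. Over the whole table of 32851 promoters, 11.9% held GGCGCC and 49.6% held CAGAC. Of the 34 promoters listed for 29 of the 40 genes, 11 held GGCGCC and 15 held CAGAC. Some of the 34 overlap each other, and their median GC content was 66.8% against 52.7% for all promoters, whose part in the motif counts was not tested. A match is a description of the letters and not evidence of binding.

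Receptor genes of the BMP and activin branches showed small differences. All 7 were tested, 6 with a negative difference, and the median was −0.08. Acvr2a, an activin type II receptor, measured 5.70, 5.19 and 5.93 on the wild-type arrays and 4.66, 5.08 and 5.90 on those labelled mutant. It was not detected on mutant replicate 1, the groups overlapped, and the difference was −0.40 (−1.21 to 0.416). Bmpr1a and Bmpr1b, type I receptors for BMPs, differed by −0.17 (−0.962 to 0.626) and −0.06 (−0.645 to 0.518). The BMP type II receptor Bmpr2 was at −0.16 (−0.736 to 0.416), the type I receptor Acvr1 at −0.08 (−0.492 to 0.323) and the activin type II receptor Acvr2b at −0.04 (−0.484 to 0.397). Only Acvr1b, the activin type I receptor, was positive, at 0.17 (−0.331 to 0.665), and it was 0.35 (−0.063 to 0.767) without mutant replicate 1. Over all 6 arrays these intervals exclude a doubling or halving for Acvr1, Acvr1b, Acvr2b, Bmpr1a, Bmpr1b and Bmpr2. Without mutant replicate 1 the interval of Bmpr1a, −1.17 to 0.522, did not exclude a halving.

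The TGF-beta receptors did not move together on mutant replicate 1. Tgfbr2, the type II receptor, measured 4.81, 5.70 and 5.33 on the wild-type arrays and 8.16, 4.73 and 4.71 on those labelled mutant. Mutant replicates 2 and 3 were the lowest of the 6 arrays and mutant replicate 1 the highest. The difference of 0.59 (−1.50 to 2.67) thus describes neither. Tgfbr2 was not detected on mutant replicates 2 and 3 or on wild-type replicate 1. Tgfbr1, the type I receptor, measured 12.90, 13.17 and 13.04 against 12.40, 12.98 and 13.02, lowest on mutant replicate 1, and its difference of −0.23 (−0.730 to 0.262) was −0.04 without that array. Tgfbr3, the coreceptor betaglycan, measured 5.39, 4.93 and 5.22 against 6.21, 5.66 and 4.93. Mutant replicates 1 and 2 lay above the wild-type range and replicate 3 inside it, for a difference of 0.42 (−0.338 to 1.18). On mutant replicate 1 endothelium markers were higher than on any other array by the values given above, and their part in the Tgfbr2 value was not tested.

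Among the Smad genes, Smad3 stood apart on mutant replicate 1 as well. Smad3, which transmits activin and TGF-beta signals, measured 9.76, 9.23 and 9.51 on the wild-type arrays and 11.10, 9.61 and 9.18 on those labelled mutant. Its difference was 0.46 (−0.634 to 1.56) over all arrays and −0.10 (−0.628 to 0.420) without that array. Smad2, of the same branch, was lowest on mutant replicate 1 and differed by −0.21 (−0.729 to 0.303). In the BMP branch, Smad5 measured 8.91, 8.43 and 8.59 against 8.78, 9.04 and 8.75, a difference of 0.21 (−0.224 to 0.653), and Smad1 differed by 0.06 (−0.377 to 0.494). Mutant replicate 1 lay inside the range of the other arrays for both. The inhibitory Smad6 was detected on wild-type replicate 1 and mutant replicate 1 only, and Smad7 on no array.

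Id1 to Id4 encode helix-loop-helix proteins that block the DNA binding of basic helix-loop-helix factors and hold cells back from differentiation. By their brightest probes all 4 were highest on mutant replicate 1 and none separated the groups; a second probe of Id2 and of Id4 did so and is described below. Id1 measured 9.15, 8.32 and 8.23 on the wild-type arrays and 10.74, 8.37 and 8.31 on those labelled mutant. Its 2 highest arrays, mutant replicate 1 and wild-type replicate 1, were also the highest for the blood, mesenchyme, endothelium and progenitor marker sums. The same pair was highest for 4 members, Bmp1, Id1, Id2 and Smad3, beside 13.1% of all features. Id2 measured 9.47, 9.32 and 9.08 against 9.96, 9.33 and 9.33, and Id3 measured 7.98, 8.203 and 7.28 against 9.05, 7.40 and 7.67. Id4 measured 9.83, 9.38 and 9.93 against 10.23, 9.36 and 10.02. Apart from replicate 1, the mutant values lay inside the wild-type range for Id1, Id2 and Id3 and within 0.1 log2 units of it for Id4. The differences were 0.57 (−0.954 to 2.09) for Id1, 0.25 (−0.278 to 0.780) for Id2, 0.22 (−0.848 to 1.28) for Id3 and 0.16 (−0.471 to 0.792) for Id4. Without mutant replicate 1 they were −0.23, 0.04, −0.29 and −0.02.

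**Figure D4:**
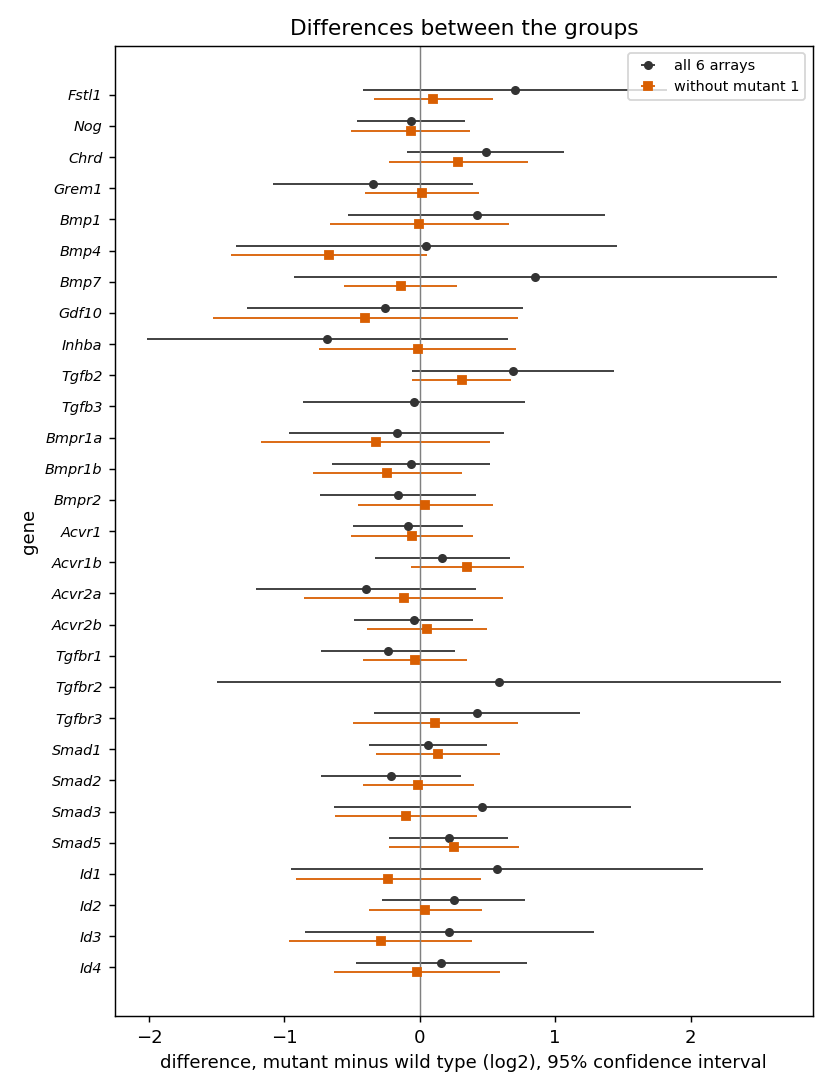
Difference between the group means (mutant minus wild type, log2) with its 95% confidence interval for the tested genes other than Fst, for which only a bound can be given, over all 6 arrays (circles) and without mutant replicate 1 (squares). Every interval shown includes 0 in both fits; Tgfb3 and Tgfbr2 have no square because their probes were not kept without that array.

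Of the 30 genes, 11 differed by more than 1 log2 unit between mutant replicate 1 and the mean of the other 5 arrays, beside 9.79% of all features, a threshold chosen after the values were seen. The 9 that were higher there were Bmp1, Bmp4, Bmp7, Fstl1, Id1, Id3, Smad3, Tgfb2 and Tgfbr2, and the 2 lower were Grem1 and Inhba. The furthest were Tgfbr2 at 3.11, Bmp7 at 2.90, Id1 at 2.26 and Inhba at −2.01. For any of the other 5 arrays at most 2 members were as far from the rest, beside 0.799% to 1.52% of features. The markers of blood, mesenchyme, endothelium and progenitors that were high on the same array are given above, and their part in these values was not tested.

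Other kept probes of the same genes gave a check on these patterns. The 3 brightest Bmp1 probes each had their highest value on mutant replicate 1, with differences of 0.42, 0.49 and 0.30. So did the fourth, with a difference of −0.03. Both Smad3 probes were highest there, at 0.46 and 0.35, and both Tgfbr1 probes lowest, at −0.23 and −0.41. The 3 Bmpr2 probes were lowest there too, at −0.16, −0.01 and −0.27. Both Smad5 probes were positive, at 0.21 and 0.28, the second with no overlap between the groups. Probes disagreed in sign for Bmpr1a, where the second was at 0.03, and for Acvr1b, where the others were at 0.14 and −0.21. They also disagreed for Smad1, at 0.06 for the brightest and −0.22, 0.20 and −0.21 for the others, and for Id2, at 0.25, 0.39 and −0.21. The second Smad1 probe did not overlap between the groups, at 10.55, 10.70 and 10.61 against 10.18, 10.47 and 10.55, with wild-type replicate 1 at 10.553 and mutant replicate 3 at 10.552. The second Id2 probe did not overlap either, at 7.80, 7.68 and 7.79 against 8.65, 7.91 and 7.88, lower in the wild type. The second Id4 probe, with values of 7.57, 7.29 and 7.39 against 7.15, 7.14 and 7.14, separated the groups in the direction opposite to the first, at −0.27 (−0.623 to 0.080). For comparison, the groups did not overlap for 5.51% of all features, and the share over all kept probes was not computed. The second Bmpr1b probe was at −0.33. The sources used here do not say which transcripts these probes match. Fst, Tgfb2, Chrd, Inhba and Id1 had no second probe, and the other probes of Bmp7 and Tgfbr2 were not kept.

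The rest of the pathway was read from 92 further genes, of which 85 had a probe and 44 were tested. None passed with limma's adjusted p, beside 0% of all features. Of the 44, 23 were higher and 21 lower, beside 47.4% of all features higher, and the median was 0.02. By limma 1 gene had an unadjusted p under 0.05, beside 1.77% of all features. That gene was Msx3, a homeobox gene of the dorsal neural tube, at 8.50, 7.74 and 7.76 on the wild-type arrays and 7.04, 7.64 and 7.15 on those labelled mutant. It was the only gene of the 44 whose groups did not overlap, beside 5.51% of all features. Its difference was −0.73 (−1.35 to −0.097) and −0.61 without mutant replicate 1. Among 6 target genes tested, the cell cycle inhibitor Cdkn1a followed at 0.31 (−0.275 to 0.900). Of 14 extracellular regulators 8 were higher, with Bmper, a BMP-binding protein, at −0.43 (−1.03 to 0.158) and the BMP coreceptor Rgma at 0.40 (−0.195 to 0.991). Of 20 intracellular regulators 8 were higher, with the deubiquitinase Usp9x at −0.28 (−0.709 to 0.151) and the corepressor Tgif1 at 0.36 (−0.258 to 0.983). Of 3 ligand genes tested 2 were higher, with Gdf9 at 0.42 (−0.156 to 1.005) and the inhibin alpha subunit Inha at −0.23 (−0.806 to 0.352), and the 1 receptor gene tested, Amhr2, was at 0.14 (−0.322 to 0.601). Mutant replicate 1 was the highest array for 15 of the 44, beside 25.6% of all features, and the lowest for 12, beside 35.7%.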

How the data were processed

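Processing started from 2 deposited tables. Per the file headers, the first holds linear intensities, 1 for each probe on each array, beside detection p-values, with no normalization between arrays. The second holds intensities that the authors normalized between arrays on a linear scale, and quantile normalization of the first table gave these within 1.43%. The sources used here name neither scanner software nor any background correction. All columns of per-sample values were matched to samples.

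Background was removed by normexp at an offset of 16 (limma 3.58.1, R 4.3.3), which took negative controls from the detection p-values, and values were then log2-transformed and quantile-normalized over 6 arrays. Linear models with empirical Bayes were fitted to 19735 kept probes with genotype as the only term. The Benjamini-Hochberg adjustment ran over 13638 features, 10438 of them named genes, and a feature passed under 0.05. Symbols came from the platform annotation, which gave 1 gene symbol for 34885 probes, several for 18 and none for 10378. Of the named probes 34807 matched a RefSeq gene table of GRCm38.p6 by identifier, which changed 0 symbols. Differences are mutant minus wild type. The number of arrays, 3 per group, limits the precision, and the fit was tested on simulated data.

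The members, further pathway genes and markers were chosen with earlier results of these data known. Values on every array were given by rule for Fst, the Id genes and the 12 members with the smallest p. Those of Bmp1, Bmp4, Smad3, Tgfb3, Tgfbr2 and the second Id4 probe were added after values were seen. Of each further pathway list, the 2 genes with the smallest p were named.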

Additional observations from a re-analysis of the deposited data

How the results depend on the processing

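Alternatives chosen at the outset were the background correction, offset, normalization, the authors' values, the filter, every probe on its own, the variance model, array weights, the replicate number as a block and leaving out each array. Leaving out both arrays numbered 1 was chosen after seeing the data. Under all 19 settings 0 members passed. For the 30 members tested in the main fit, the smallest limma adjusted p was 0.846, taken over the settings other than every probe on its own. Over all features the count past the threshold was 0, except 1 with median scaling, Thap4, and 1 without mutant replicate 3, Cops8, so that it ran from 0 to 1 over the single arrays left out. The number of members higher ran from 11 to 18 and their median from −0.02 to 0.14 over those fits. With the replicate block, 0 features and 0 members passed, and the block changed no call. Each replicate number holds 1 array of each group, so the block cannot move a difference or the median of 0.05. The labels do not say whether equal numbers pair the samples. Deviations from the group means correlated at 0.32, 0.013 and 0.10 for replicates 1, 2 and 3. Between wild-type replicate 2 and mutant replicate 3 the correlation was 0.39. Deviations from a mean of 3 arrays sum to 0, so these correlations cannot decide whether the samples are paired. Slide and scan are not named in the files, so no such block was run.

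Of 346 values of members compared under the alternatives other than single arrays left out, 10 reversed, none of them past the threshold, and the causes were not tested. The 346 include the fits with another filter, variance model or replicate block. Those fits left each member's difference as it was, so they do not bear on its sign. With an offset of 50, Tgfb3 was at 0.0062. With array weights, Bmp4 was at −0.65, Acvr2b at 0.049, Tgfbr2 at −0.32, Id3 at −0.088 and Id4 at −0.14. Without both arrays numbered 1, Bmp4 was at −0.95, Bmp7 at −0.12, Acvr2b at 0.18 and Id3 at −0.21. Over the single arrays left out, where the probe was kept, values that crossed 0 ran from −0.67 to 0.44 for Bmp4, −0.14 to 1.41 for Bmp7, −0.57 to 0.15 for Gdf10, −0.16 to 0.23 for Tgfb3, −0.0038 to 0.76 for Bmp1 and −0.57 to 0.015 for Grem1. Nog ran from −0.14 to 0.072, Acvr1 from −0.18 to 0.052, Acvr1b from −0.0094 to 0.35, Acvr2b from −0.16 to 0.084, Bmpr1a from −0.40 to 0.17, Bmpr1b from −0.24 to 0.12 and Bmpr2 from −0.33 to 0.042. Smad1 ran from −0.032 to 0.19, Smad3 from −0.10 to 0.85, Id1 from −0.23 to 0.98, Id3 from −0.29 to 0.54 and Id4 from −0.020 to 0.41. The bound for Fst ran from 1.09-fold to 1.36-fold over the background corrections and normalizations. Its probe was not kept under the strict filter, without any 1 wild-type array or without both arrays numbered 1, so none of those fits bears on it. Tgfb2 ran from 0.31 to 0.89 and from 0.35 to 0.73, and Chrd from 0.29 to 0.63 and from 0.33 to 0.52. Dim probes such as that of Fst limit what can be seen, because their signal is close to background.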
